A study of Mus musculus with 2 samples.

Results

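Neutrophil barcodes of mouse brain were the 10x Genomics cell barcodes in which 8 neutrophil genes (S100a8, S100a9, Ngp, Camp, Lcn2, Ly6g, Retnlg and Mmp8, called the rule genes here) together made up 2% or more of all UMIs. A UMI is a unique molecular identifier and stands for 1 captured RNA molecule. Of 1194 barcodes, 1162 passed a cell filter of 500 detected genes with mt- (mitochondrial) UMIs below 10%, and 51 of these met the rule. The members were thus chosen by their measured levels of the rule genes. The cells came from brains of adult C57BL/6J mice, with no other allele given in the labels. The mice were perfused, the tissue was digested with papain, myelin was removed on a Percoll gradient, and live CD11b+/CD45+ cells were sorted, a gate that the labels take for microglia. In the CD library, cells of 4 mice on 19 days of control diet were pooled. In the Repop D5 library, cells of 6 mice were pooled after 14 days of PLX5622, an inhibitor of the receptor Csf1r, and 5 days of control diet. Each group was thus 1 library of pooled mice, so no test between groups was possible and the spread between mice is unknown. The 95% intervals below reflect counting error alone.

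Neutrophils are short-lived white blood cells made in the bone marrow and are usually rare in healthy brain tissue. They fill their granules in a fixed order while they mature. Azurophil granules come first (Mpo, Elane), then specific granules (Ltf, Camp, Ngp, Lcn2), then gelatinase granules (Mmp9). After that the mature cell depends largely on stored protein. CD11b and CD45, the proteins used for this sort, are carried by neutrophils as well as by microglia.

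The rule found 42 of 609 kept CD barcodes (6.90%, exact Clopper-Pearson 95% interval 5.02 to 9.21). It found 9 of 553 kept Repop D5 barcodes (1.63%, 0.747 to 3.07). The cell filter had left out 0 CD and 32 Repop D5 barcodes, and 0 of those reached 2%. The intervals of the shares did not overlap. A share of sorted barcodes moves with the number of other cells in the sort as well as with the number of neutrophils, and these cannot be told apart. In CD, the nearest barcodes outside the rule had 1.67% and 1.56% of UMIs from the rule genes, and the nearest inside had 2.09%. In Repop D5 the nearest outside had 1.47% and the nearest inside 2.28%. The libraries shared 1 barcode sequence, which belonged to 0 members.

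The members were divided at 10%, a choice that is no natural break in CD, where the values held other gaps of like size. In Repop D5, with few members, the cut fell in the widest gap of their values. In CD, 23 barcodes had 10% or more of their UMIs from the rule genes, starting at 15.5%, and 19 had 2 to 10%, ending at 9.92%. In Repop D5, 6 barcodes began at 33.8% and 3 ended at 9.47%. The cut at 10% is a range set on the rule's own measure and not a cell type. In CD the upper range was 3.78% of kept barcodes (2.41 to 5.61), and in Repop D5 it was 1.08% (0.399 to 2.35).

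**Figure D1:**
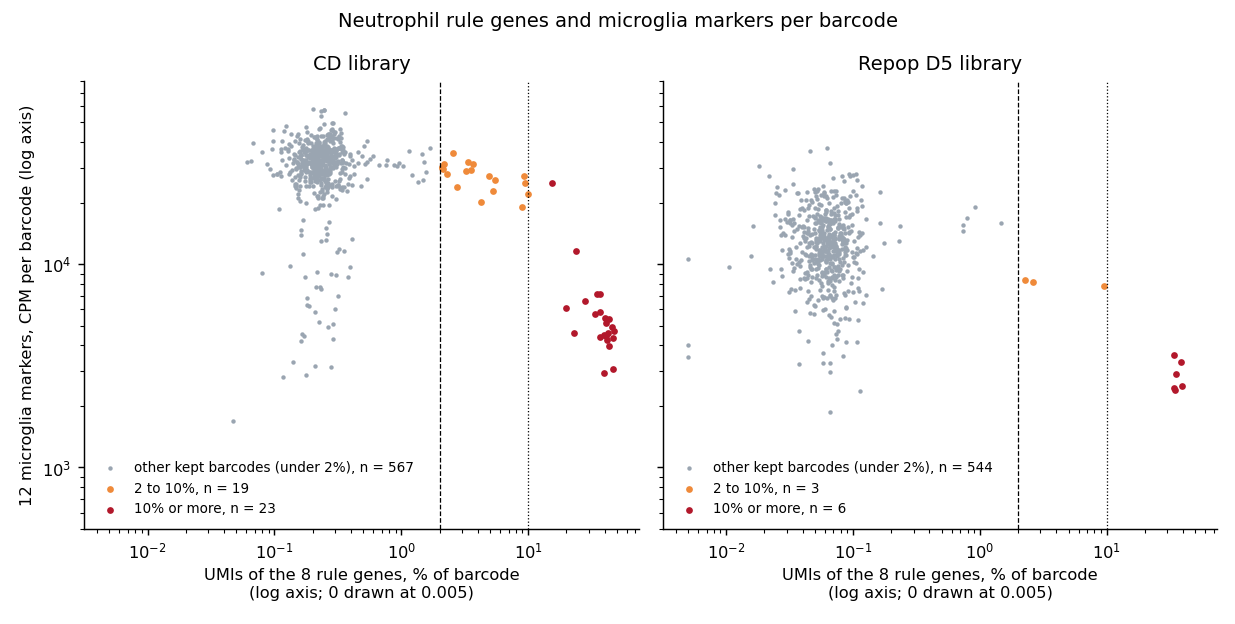
Each point is 1 kept barcode of the CD (left) or Repop D5 (right) library. The x axis is the share of its UMIs from the 8 rule genes in percent and the y axis the summed CPM of 12 microglia markers, both on log axes, with lines at 2% and 10%. Barcodes at 10% or more lie low in microglia markers, with a CD median of 4902 CPM, while CD barcodes at 2 to 10% lie close to the other barcodes, with a median of 27936 CPM.

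The neutrophil label was checked against markers of the other cells that the gate could hold. CPM is the count of a gene scaled to a total of 1000000 UMIs for the barcode or for the summed barcodes. The 12 microglia markers (P2ry12, Tmem119, Cx3cr1 and others) had a median of 4902 CPM in the 23 upper CD barcodes (2914 to 25100). The same markers had a median of 27936 CPM in the 19 CD barcodes at 2 to 10% (19272 to 35480) and of 31706 CPM in the 567 other CD barcodes. The upper barcode at 25100 CPM was the 1 of 23 that reached the range of the lower barcodes, and it also had the lowest share of rule genes, 15.5%. In Repop D5 the medians were 2707 CPM in the 6 upper barcodes (2400 to 3595), 8225 CPM in the 3 lower barcodes (7821 to 8419) and 12737 CPM in the 544 other barcodes. For barcodes at 2 to 10%, the markers thus go against a label of neutrophils alone, and they are called by their range here.

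Single microglia genes followed the same order. P2ry12, a nucleotide receptor of microglia, had 0 to 11 UMIs per upper CD barcode (median 2) and 5 to 138 UMIs per lower CD barcode (median 60). Cx3cr1, the fractalkine receptor, had 0 to 10 UMIs (median 4) and 15 to 299 UMIs (median 107) in the same ranges. The ranges of P2ry12 overlapped between 5 and 11 UMIs, and those of Cx3cr1 did not overlap. These are raw UMIs, and the lower barcodes were deeper, with a median of 20605 against 4804 UMIs. After random thinning of each barcode to 2500 UMIs, 14 of 23 upper and 19 of 19 lower barcodes had a P2ry12 UMI. For Cx3cr1 it was 19 of 23 and 19 of 19. Over the 42 CD members, the share of rule genes and the level of microglia markers had a Spearman rho of -0.905. Both are shares of 1 total from 1 library, so this is a description only.

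Depth differed between the ranges. The upper CD barcodes had a median of 4804 UMIs (2990 to 9700) and 1277 genes. The lower CD barcodes had 20605 UMIs (3025 to 41356) and 4507 genes, and the other CD barcodes had 5946 UMIs and 2158 genes. Upper Repop D5 barcodes had 5136 UMIs and 1354 genes, while the other Repop D5 barcodes had 16270 UMIs and 3686 genes. The upper barcodes were therefore of like depth in the 2 libraries, and the other barcodes were not. The rule genes had a median of 1886 UMIs per upper and 1028 UMIs per lower CD barcode. At 2500 UMIs per barcode, a depth that every member reached, the medians were 803 genes in the upper, 1272 in the lower and 1249 in the other CD barcodes. The doublet caller Scrublet marked 5 CD and 8 Repop D5 barcodes, and 0 of them were members.

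**Figure D2:**
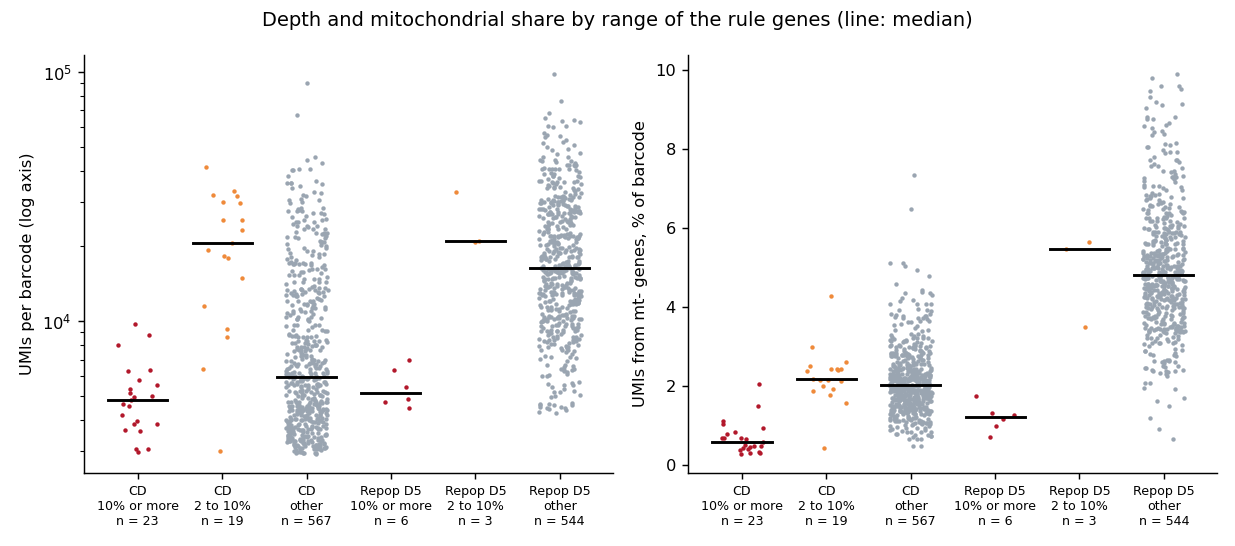
Points are kept barcodes and black lines are medians, by library and by range of the rule genes. The left panel gives UMIs per barcode on a log axis and the right panel the percentage of UMIs from mt- genes. Barcodes at 10% or more had medians of 4804 (CD) and 5136 (Repop D5) UMIs, and CD barcodes at 2 to 10% had 20605.

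As shares of all UMIs, mitochondrial and ribosomal protein RNA were also low in upper barcodes. The rule genes took a median of 39.7% of UMIs in upper CD and 34.7% in upper Repop D5 barcodes, which lowers every other share there. Mitochondrial genes took a median of 0.574% of UMIs in upper, 2.17% in lower and 2.01% in other CD barcodes. In Repop D5 they took 1.21%, 5.47% and 4.81%. Ribosomal protein genes took 5.10% in upper and 10.9% in other CD barcodes, and 8.14% and 22.2% in Repop D5. In both libraries the upper barcodes stood below the other barcodes, and both shares were higher in Repop D5 than in CD.

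Among 15 lists of other cell types, the monocyte list was the highest after microglia in the upper barcodes of both libraries. In the 23 upper CD barcodes its 7 markers summed to 1134 CPM, against 276 CPM in the other CD barcodes. Ly6c2, a surface protein of monocytes and some other leukocytes, gave 112 of these 133 UMIs, while Ccr2 and Vcan, a chemokine receptor and a matrix protein of monocytes, were at 0 UMIs. The 7 border macrophage markers summed to 128 CPM, with Cd163 and Cd209f at 0 UMIs, against 884 CPM in the other CD barcodes. The B cell and the mast cell or basophil lists had 0 UMIs there, 6 UMIs came from the erythroid list, and the remaining 9 lists gave 1 to 9 UMIs each. In the 6 upper Repop D5 barcodes the monocyte markers summed to 1190 CPM, with Ly6c2 at 34 of 39 UMIs and Ccr2 again at 0, and the border macrophage and erythroid lists had 0 UMIs. The lower CD barcodes held border macrophage markers at 961 CPM and monocyte markers at 388 CPM. The part of RNA from other cells in any value below was not tested.

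Sequences before the start of 5 of the genes are shown because 4 of them order the neutrophil barcodes below and the fifth, Retnlg, runs against them. They are from RefSeq on GRCm38.p6, in the sense of the gene, and end before the first base of any GENCODE M21 transcript of that gene. The windows are chr9:110419558-110419746 (plus strand) for Ngp, chr9:111019042-111019270 (plus strand) for Ltf and chr2:32387798-32387989 (minus strand) for Lcn2. They are chr9:109849618-109849706 (minus strand) for Camp and chr16:48872358-48872607 (plus strand) for Retnlg. Capitals mark TTNNGCAA or its reverse complement TTGCNNAA, a form bound by C/EBP transcription factors, of which Cebpe acts in late granulocytes. Searched on both strands in the 250 bases before the RefSeq start, these letters were in a window of 6 of the 8 rule genes and in 9.56% of all 32851 windows. The search was chosen with the gene levels known, and a match describes the letters only, not a bound site or a cause.

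Ngp: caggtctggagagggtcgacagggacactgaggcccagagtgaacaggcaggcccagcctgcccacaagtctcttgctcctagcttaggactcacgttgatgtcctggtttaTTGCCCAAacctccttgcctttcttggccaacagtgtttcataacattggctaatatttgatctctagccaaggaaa
Ltf: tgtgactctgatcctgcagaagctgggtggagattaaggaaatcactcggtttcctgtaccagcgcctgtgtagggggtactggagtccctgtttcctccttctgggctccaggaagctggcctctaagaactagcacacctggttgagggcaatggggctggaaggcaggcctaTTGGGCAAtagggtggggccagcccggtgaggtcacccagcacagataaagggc
Lcn2: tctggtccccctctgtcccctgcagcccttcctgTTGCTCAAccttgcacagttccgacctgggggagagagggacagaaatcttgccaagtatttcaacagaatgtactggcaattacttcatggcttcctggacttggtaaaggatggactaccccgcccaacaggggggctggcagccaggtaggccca
Camp: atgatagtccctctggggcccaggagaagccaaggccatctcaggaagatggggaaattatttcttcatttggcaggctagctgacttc
Retnlg: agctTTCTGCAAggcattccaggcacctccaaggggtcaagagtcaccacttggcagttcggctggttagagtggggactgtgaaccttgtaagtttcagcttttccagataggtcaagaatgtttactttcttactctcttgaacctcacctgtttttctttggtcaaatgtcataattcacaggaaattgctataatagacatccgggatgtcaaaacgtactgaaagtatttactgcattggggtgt

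The rule genes themselves describe the choice of members and are not a finding. S100a8 and S100a9, the calprotectin subunits that bind calcium and zinc, lie on chromosome 3 (90668978 to 90670035 and 90692632 to 90695721, mm10). S100a8 had 378 to 1779 UMIs per upper CD barcode (median 901) and 688 to 1236 UMIs per upper Repop D5 barcode (median 879). S100a9 had 221 to 1119 UMIs (median 636) and 489 to 907 UMIs (median 716.5). For both genes the Repop D5 range lay within the CD range. Ngp and Camp, a cystatin-like granule protein and the cathelicidin precursor, spread far more widely. Ngp ran from 0 to 701 UMIs per upper CD barcode (median 12) and from 13 to 250 in Repop D5 (median 96). Camp ran from 0 to 401 UMIs (median 12) and from 2 to 182 (median 112). Ly6g, the surface protein that antibodies use to mark mouse neutrophils, had 0 to 24 UMIs in the upper CD barcodes, with at least 1 in 19 of 23. All 6 upper Repop D5 barcodes had 1 or 2 Ly6g UMIs. Each upper CD barcode held 5 to 8 of the rule genes (median 8), and each upper Repop D5 barcode held all 8. The lower CD barcodes held 4 to 8.

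In the lower range, S100a8 and S100a9 had lower medians of raw UMIs per CD barcode than in the upper range, while Ngp, Camp and Ltf had higher ones. S100a8 had 37 to 1215 UMIs per lower CD barcode (median 538), and the 3 lower Repop D5 barcodes had 295, 410 and 927. S100a9 had 22 to 772 UMIs per lower CD barcode (median 299). Ngp had 1 to 219 UMIs per lower CD barcode (median 32), and the lower Repop D5 barcodes had 0, 5 and 273. Camp had 2 to 281 UMIs per lower CD barcode (median 25). Ltf, lactoferrin, had 0 to 54 UMIs per lower CD barcode (median 9) and 0 to 88 per upper one (median 1). The lower barcodes were deeper, and their ranges of Ngp, Camp and Ltf UMIs were narrower than those of the upper barcodes. Scaled to all UMIs, the order of Ngp and Camp was the reverse, an order that the cut itself favours. Ngp was at 2201 CPM in lower and 18959 CPM in upper CD barcodes, and Camp at 2943 and 15309 CPM.

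The same genes were found at a low level outside the members. After thinning to 2500 UMIs, 93.7% of the other CD barcodes (91.3 to 95.5) and 50.4% of the other Repop D5 barcodes (46.1 to 54.7) had an S100a8 UMI. Unthinned, the shares were 99.1% and 95.8%. Ngp was found in 18.3% and 7.90% after thinning and Ly6g in 0.882% and 0.184%. S100a9 made up 32.7% of the rule-gene UMIs in the upper, 30.6% in the lower and 34.3% in the other CD barcodes. In Repop D5 it made up 35.4%, 28.7% and 36.4%. Ngp made up 5.05% in the upper and 3.34% in the other CD barcodes, and Ly6g 0.241% and 0.143%. In Repop D5, Ngp made up 5.22% and 4.87%, and Ly6g 0.0851% and 0.115%. Retnlg made up 5.62% in the upper and 6.01% in the other CD barcodes, and 3.79% and 5.57% in Repop D5. The proportion in upper and other barcodes was thus close for S100a9 in both libraries. It was less close for Ngp in CD and for Retnlg in Repop D5. The Ly6g shares in Repop D5 rest on 10 UMIs in upper and 9 in other barcodes, too few to give a direction. The library with more members had more of these UMIs in its other barcodes. The part of free RNA was not tested.

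A gene was counted as higher or lower where the ratio of summed CPM was 2 or more, or its inverse, with a 95% interval clear of 1, among genes at 50 CPM on 1 side. Summed over all 42 CD members, 176 of 3360 genes were higher than in the other CD barcodes (5.24%) and 61 were lower (1.82%). The 19 lower barcodes gave 401563 of the 518815 member UMIs, so values of the 23 upper barcodes stand beside these sums. In the upper CD barcodes, 436 of 3495 genes were higher (12.5%) and 1524 were lower (43.6%). The rule genes gave 44005 of the 117252 UMIs of these barcodes, which lowers the CPM of every other gene there. Totals free of the rule genes were not used for the upper range. For the 9 Repop D5 members the counts were 220 higher (7.63%) and 277 lower (9.61%) of 2883, and for the 6 upper ones 348 (10.8%) and 456 (14.2%) of 3209. The 19 lower CD barcodes alone gave 73 higher (2.16%) and 27 lower (0.798%) of 3382. Of the calls over all members, 74.3% were higher in CD, 44.3% in Repop D5 and 34.7% between the libraries. With totals free of rule, mt- and ribosomal protein genes these shares were 86.9%, 67.3% and 61.0%. The rule used the contrast with other barcodes, so its counts and the levels that follow are descriptions. A gene could also reach 50 CPM on 1 side alone, which favours a call of higher on that side. Several lists below hold such genes, so their counts beside the share over all genes are descriptions too.

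Of 9 azurophil granule genes, the earliest of the series, 7 had 0 UMIs in all 51 members. They were Mpo (myeloperoxidase), Elane (neutrophil elastase), Prtn3 and Ctsg (serine proteases), Prss57, Ms4a3 and Bpi. A count of 3 UMIs would be 25.6 CPM over the upper CD barcodes and 91.5 CPM over the upper Repop D5 barcodes. The other 2, Ctsc and Cd63, were not higher over the CD members, and both were lower in the upper CD barcodes. In that range 43.6% of all genes were lower. Gfi1, a transcription factor of early granulocytes, was also at 0 UMIs in all members.

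Specific granule genes were high. Of 9 listed besides the rule genes, 6 were measured in the CD members and 5 were higher. Their median log2 ratio was 4.71, beside -0.20 over all genes tested, of which 5.24% were higher. Ltf, lactoferrin, was at 2959 CPM in upper CD barcodes, 4058 CPM in upper Repop D5 barcodes and 30.5 CPM in the other CD barcodes. Chil3, a chitinase-like protein, was at 1296, 1282 and 28.7 CPM. Pglyrp1, which binds bacterial peptidoglycan, was at 2797, 2624 and 24.2 CPM. Cd177, a surface protein of neutrophils, was at 307, 824 and 3.43 CPM.

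Of 5 gelatinase granule and secretory vesicle genes, 3 were measured in CD members and 2 were higher, beside 5.24% of all genes. Mmp9, the gelatinase itself, was at 1177 CPM in upper CD and 1526 CPM in upper Repop D5 barcodes, with at least 1 UMI in 22 of 23 and 6 of 6. Adam8, a metalloproteinase of the cell surface, was at 213 and 214 CPM. Slc11a1, a metal transporter of phagosomes, was at 102 CPM in the upper and 138 CPM in the other CD barcodes.

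Secreted proteins and small calcium-binding proteins were also high. Of 8 genes for antiproteases and secreted neutrophil proteins, 6 were measured in CD members and 5 were higher. All 8 were measured in the upper CD range, with 7 higher. The shares higher over all genes were 5.24% and 12.5%. Wfdc21, a WAP-domain protein, was at 6388 CPM in upper CD, 901 CPM in lower CD and 45.7 CPM in other CD barcodes. Slpi, an inhibitor of leukocyte elastase, was at 2362, 192 and 33.6 CPM. G0s2, an inhibitor of fat breakdown, was at 1561, 157 and 11.7 CPM. Hdc, which makes histamine, was at 989, 159 and 10.7 CPM. S100a6, S100a11, Anxa1 and Anxa2 were higher, with S100a11 at 7258 CPM in upper and 80.4 CPM in other CD barcodes. S100a4 was called higher over all CD members, at 59.8 against 22.4 CPM, and was at 25.6 CPM in the upper barcodes. Stfa2l1 and Gm5483, of the stefin A protease inhibitors, were at 623 and 904 CPM in upper CD barcodes, but these genes have near-identical copies and their counts are uncertain.

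**Figure D3:**
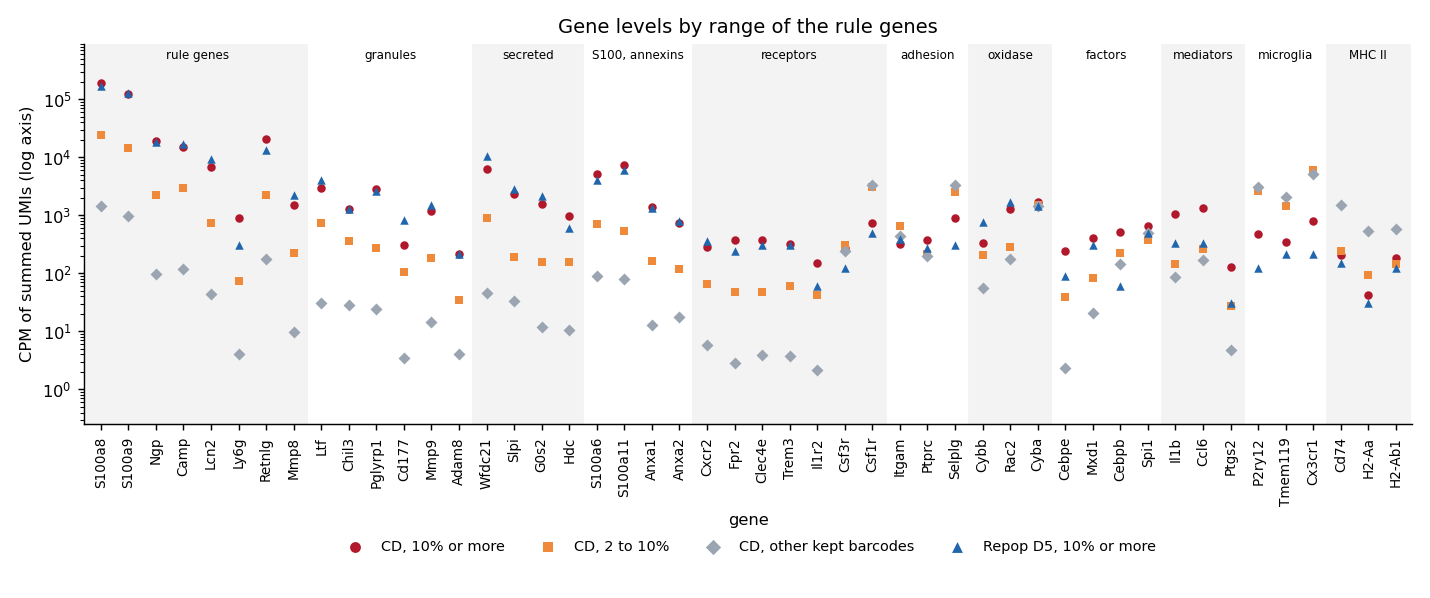
Each column is 1 gene and the y axis is the CPM of UMIs summed over a set of barcodes, on a log axis. Points are CD barcodes with rule genes at 10% or more (red circles), at 2 to 10% (orange squares) and under 2% (grey diamonds), and Repop D5 barcodes at 10% or more (blue triangles). Ltf stands at 2959 CPM in upper and 30.5 CPM in other CD barcodes, while Csf3r stands at 273 and 240 CPM.

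Receptors divided by kind. Of 9 chemoattractant receptors, 5 were measured in CD members and 3 were higher. In the upper CD barcodes 8 were measured, with 7 higher and 1 lower. Of the genes called higher there, Cxcr2, Cxcr4, Fpr1, Fpr2 and Ltb4r1 were under the CPM minimum in the other CD barcodes. They were counted through their level in the upper barcodes alone, which favours a call of higher. The same holds for Cxcr2 and Fpr2 in CD members. Over all genes, 5.24% were higher in members, and 12.5% were higher and 43.6% lower in the upper range. Genes could enter those shares through either side, so the list counts beside them are descriptions only. Cxcr2, the chemokine receptor that draws neutrophils out of the marrow, was at 281 CPM in upper and 5.78 CPM in other CD barcodes. It had 0 to 6 UMIs per upper barcode, with at least 1 in 16 of the 23 CD barcodes and in 4 of the 6 Repop D5 barcodes. Cxcr4, the receptor that holds neutrophils in the marrow, was at 85.3 CPM with at least 1 UMI in 9 of 23, and at 6.33 CPM in the other CD barcodes. Fpr2, a receptor for formyl peptides, was at 375 CPM against 2.89 CPM.

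The growth factor and cytokine receptors were mostly not higher in CD members, where 5.24% of all genes were higher. Of 10 measured in CD members, Il1r2, the decoy receptor for interleukin 1, was the 1 called higher, at 154 CPM in upper and 2.17 CPM in other CD barcodes. Csf3r, the receptor for the neutrophil growth factor G-CSF, was at 273 CPM in upper and 240 CPM in other CD barcodes, a ratio of 1.14 (0.775 to 1.61). The large share of rule genes in the upper total lowers this ratio. Csf1r, the target of PLX5622, was at 725 CPM in upper, 3085 CPM in lower and 3325 CPM in other CD barcodes. Csf1r had 1 to 9 UMIs per upper barcode (median 3) and 17 to 166 UMIs per lower barcode (median 62). These ranges did not overlap, but they are raw UMIs and the lower barcodes were deeper. After thinning to 2500 UMIs, 20 of 23 upper and 19 of 19 lower CD barcodes had a Csf1r UMI.

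Among lectin, Trem and Fc receptors, Clec4e and Trem3 were high, at 384 and 316 CPM in upper CD barcodes against 3.97 and 3.79 CPM in the others. Fcgr3 and Fcgr2b, Fc receptors also found on microglia, were lower in the upper CD range, where 43.6% of all genes were lower. Of 13 adhesion and trafficking genes, 9 were measured in CD members, with 2 higher and 1 lower. Over all genes in CD members, 5.24% were higher and 1.82% lower. Itgam, which encodes CD11b, was at 316 CPM in upper and 444 CPM in other CD barcodes, and Ptprc, which encodes CD45, at 384 and 198 CPM. Both proteins of the sort thus had RNA in the members.

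All 6 NADPH oxidase genes, which make the oxidative burst, were measured in CD members. Of these, Cybb and Rac2 were higher, where 5.24% of all genes were higher. Cybb, the catalytic subunit of the oxidase, was at 333 CPM in upper CD, 763 CPM in upper Repop D5 and 56.9 CPM in other CD barcodes. Cyba, its partner, was at 1731 and 1436 CPM in upper and other CD barcodes. Of 6 measured granulocyte transcription factors 3 were higher in the same comparison. Cebpe, needed for specific granules, was at 239 CPM in upper and 2.35 CPM in other CD barcodes. Mxd1, which opposes Myc and marks late granulocytes, was at 409 and 20.4 CPM, and Spi1 (PU.1), shared by myeloid cells, at 665 and 491 CPM.

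Of 11 measured inflammatory mediators, 6 were higher in CD members, and the median log2 ratio was 1.15. Over all genes, 5.24% were higher and the median was -0.20. Il1b, interleukin 1 beta, was at 1075 CPM in upper, 144 CPM in lower and 85.1 CPM in other CD barcodes. Ccl6, a chemokine, was at 1339, 261 and 169 CPM. Ptgs2, which makes prostaglandins, was at 128, 27.4 and 4.70 CPM. In the leukotriene list, Alox5ap, the partner of 5-lipoxygenase, was at 1245 CPM in upper and 446 CPM in other CD barcodes.

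Interferon-inducible membrane proteins were high, and the rest of that list was not uniform. Of 6 interferon genes measured in CD members, Ifitm2, Ifitm3 and Ifitm6, which restrict virus entry or resemble proteins that do, were higher. Over all genes in CD members, 5.24% were higher. Ifitm6 was at 2345 CPM in upper CD, 3021 CPM in upper Repop D5 and 20.4 CPM in other CD barcodes. Ifitm3 was at 1254, 1434 and 213 CPM. Bst2, tetherin, was at 42.6 CPM in upper and 247 CPM in other CD barcodes, and was lower in the upper range, as were 43.6% of all genes.

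Of 11 measured glycolysis genes 1 was higher in CD members. In the upper CD range, 7 of 12 were higher and 3 (Hk2, Pfkl and Tpi1) were lower, where 12.5% and 43.6% of all genes were. In the upper Repop D5 range 1 of 12 (Hk3) was higher, and the median log2 ratio was -0.18. Slc2a3, a glucose transporter of blood cells, was at 136 CPM in upper and 21.3 CPM in other CD barcodes. Gapdh, a glycolysis enzyme, was at 1040 and 383 CPM in CD, but at 1800 CPM in upper and 2565 CPM in other Repop D5 barcodes. Of the survival genes, Mcl1, which keeps neutrophils alive, was at 273 CPM in upper and 164 CPM in other CD barcodes. Bcl2l1, a relative of it, was lower, at 17.1 against 71.2 CPM.

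Of 17 cell cycle genes measured in the upper Repop D5 barcodes, 0 were higher than in the other Repop D5 barcodes. Of these genes 3 (Mki67, Cdk1 and Pcna) were lower, and 14 were called neither. Among all genes of that comparison 14.2% were lower and 10.8% were higher. For the 17 genes the log2 ratios had a median of -5.9, beside -0.81 for all genes. Here and in the other medians of log2 ratios, 1 CPM was added to both levels. A gene at 0 UMIs thus has a ratio set by that addition, so this median does not measure the size of a difference. A call of neither there does not mean an equal level. In upper CD barcodes 1 cell cycle gene was measured and was called neither. Mki67 and Top2a, proteins of dividing cells, had 0 UMIs in the 23 upper CD barcodes, where 3 UMIs would be 25.6 CPM. Upper Repop D5 barcodes had 0 Mki67 UMIs and 1 Top2a UMI in a total of 32774 UMIs. The other Repop D5 barcodes had 1334 and 1657 in a total of 10930615 UMIs, so these raw counts are not on 1 scale. Top2a was called neither, and 3 UMIs would be 91.5 CPM over the upper Repop D5 barcodes. Lower CD barcodes had 5 UMIs of each gene. The 3 lower Repop D5 barcodes had 1 to 4 Mki67 UMIs each.

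Among genes in the naming rule, which leaves out haemoglobin and asks for a UMI in 25% of the barcodes of the higher side, H2-Aa and Cd74 had the lowest ratios in CD members. Cd74, the MHC class II chaperone, was at 235 CPM in members and 1497 CPM in other CD barcodes. H2-Aa and H2-Ab1, class II chains, were at 81.0 against 532 CPM and 156 against 582 CPM. In the upper CD range alone, Cd74 was at 205 CPM and H2-Aa at 42.6 CPM. The erythroid list, with the haemoglobin genes, was lower still, at 44.3 CPM in CD members and 1791 CPM in the other CD barcodes. The other CD barcodes were not divided by cell type here.

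The upper CD barcodes were not alike among themselves. They were ordered by the sum of Ngp, Camp, Ltf and Lcn2 after thinning to 2500 UMIs. Chil3 followed that sum most closely of 501 genes, with a Spearman rho of 0.878 over 23 barcodes, followed by Dstn (0.873), Wfdc21 (0.82), Aldh2 (0.802) and Myeov2 (0.787). Dstn severs actin and Aldh2 is an aldehyde dehydrogenase. The lowest values belonged to Emb (-0.816), Ccl6 (-0.797), Fxyd5 (-0.787), Tyrobp (-0.759) and H2-D1 (-0.737). Tyrobp is a signalling adaptor of myeloid receptors and H2-D1 an MHC class I chain. Cebpe was at 0.527, S100a8 at 0.384, Mmp9 at -0.208, Retnlg at -0.431, Il1b at -0.559 and Csf3r at -0.642. The unthinned depth and the sum had a rho of 0.618, and all points come from 1 library. Over all 42 CD members, the top gene was again Chil3 (0.773), and Ccl6 was at -0.52.

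Counts per barcode describe the same order in the same barcodes. In 7 upper CD barcodes Ltf had 10 or more UMIs. These had 10 to 701 Ngp UMIs (median 224), 1 to 44 Chil3 UMIs, 0 or 1 Ccl6 UMI and 0 to 3 Il1b UMIs. In 10 upper CD barcodes Ltf had 0 UMIs. These had 0 to 12 Ngp UMIs (median 2), 0 to 2 Chil3 UMIs, 3 to 19 Ccl6 UMIs and 0 to 25 Il1b UMIs. The ranges of Ccl6 did not overlap between these barcodes. Chil3 and Ccl6 were picked as extremes of the ranking above, whose sum holds Ltf and Ngp, so their separation by Ltf is a description only. The remaining 6 had 1 to 9 Ltf UMIs, with Ngp at 2 to 30 (median 26), between the other medians, and Ccl6 at 0 to 32, a range that took in both others. Retnlg, a resistin-like secreted protein, had a median of 17 UMIs where Ltf was at 10 or more, 144 where it was at 1 to 9 and 120.5 where it was at 0. Barcodes with Ltf at 10 or more were deeper, with a median of 6375 UMIs, than those at 0, with 3761.

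**Figure D4:**
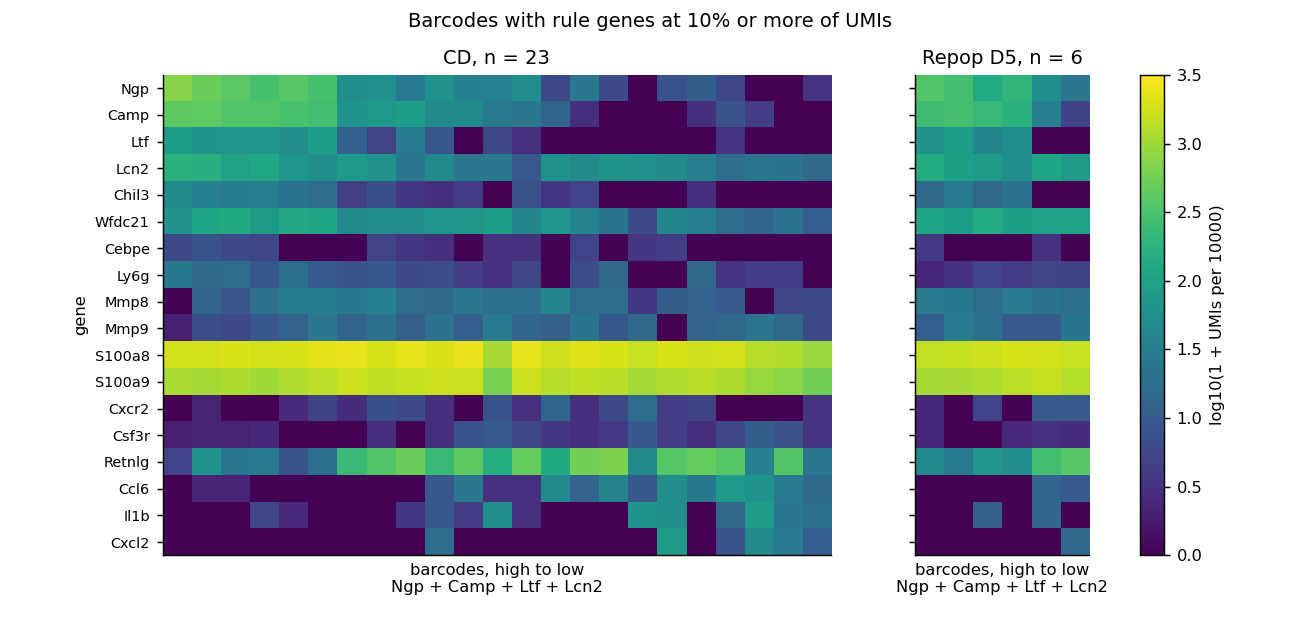
Columns are the 23 CD and 6 Repop D5 barcodes with rule genes at 10% or more, ordered by the share of UMIs from Ngp, Camp, Ltf and Lcn2, and rows are genes. Colour is log10 of 1 plus UMIs scaled to 10000 per barcode. Ltf and Chil3 are bright at the left, Ccl6, Il1b and Cxcl2 at the right, and S100a8 and S100a9 throughout.

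The 6 upper Repop D5 barcodes split the same way. In 4 of them Ltf had 10 or more UMIs, with 67 to 250 Ngp UMIs, 7 to 13 Chil3 UMIs and 0 Ccl6 UMIs. In the other 2 Ltf had 0 UMIs, with 13 and 26 Ngp UMIs, 0 Chil3 UMIs and 5 and 6 Ccl6 UMIs. The share with Ltf at 10 or more was thus 4 of 6 against 7 of 23 in CD.

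Between the libraries, upper barcodes were compared with each other, since their depth was alike. Of 2654 genes, 111 were higher in Repop D5 (4.18%) and 51 lower (1.92%). For all members the counts were 299 higher (9.24%) and 563 lower (17.4%) of 3235. The other barcodes of the libraries gave 429 higher (12.4%) and 787 lower (22.8%) of 3446. Each side is 1 library, and treatment and library cannot be told apart.

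S100a8, S100a9 and the granule genes Ngp, Camp, Lcn2, Mmp8 and Ltf differed by less than 2 times. S100a8 had a ratio of 0.908 (0.882 to 0.936), S100a9 of 1.03 (0.997 to 1.07), Ngp of 0.987 (0.901 to 1.08) and Camp of 1.10 (1.00 to 1.22). Lcn2, lipocalin 2, had a ratio of 1.37 (1.20 to 1.57), Mmp8 of 1.52 (1.15 to 2.01) and Ltf of 1.37 (1.11 to 1.68). None of these reached a ratio of 2, though the intervals of Lcn2, Mmp8 and Ltf lay above 1 and that of S100a8 below 1. In the other barcodes the same genes were all lower in Repop D5, with S100a8 at 0.221 and Ngp at 0.359. Cd177 was the 1 specific granule gene called higher, at 2.68 (1.57 to 4.54).

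Of 12 inflammatory mediators measured in the upper barcodes, 3 were lower in Repop D5 (Il1b, Cxcl2 and Ccl6), 0 were higher and 9 were called neither. Their median log2 ratio was -1.50 beside 0.25 over all genes, of which 1.92% were lower and 4.18% higher. Over all members, 5 of 11 were lower, with Ccl6 among them but neither Il1b nor Cxcl2, and Tnf was higher. Of all genes, 17.4% were lower and 9.24% higher in that comparison. Il1b was 3.20 times lower (1.73 to 6.58), with 0 to 25 UMIs per CD barcode (at least 1 in 13 of 23) and 0 to 6 per Repop D5 barcode (at least 1 in 2 of 6). Ccl6 was 3.99 times lower (2.17 to 8.16), with 0 to 32 UMIs (16 of 23) and 0 to 6 UMIs (2 of 6). The ranges overlapped for both genes. Over all members, the Il1b level was 355 CPM for CD against 298 CPM for Repop D5, 1.19 times lower (0.814 to 1.79). In the other barcodes Il1b and Ccl6 were 1.65 and 2.39 times lower in Repop D5. Within barcodes with Ltf at 10 or more, Ccl6 had 0 or 1 UMI in CD and 0 UMIs in Repop D5, and within those at 0 it had 3 to 19 UMIs in CD and 5 and 6 in Repop D5. The upper sets differed in this make-up, with 7 of 23 and 4 of 6 at 10 or more, and its part in the ratios was not tested. Ly6g was 2.96 times lower (1.55 to 6.36) and Retnlg 1.55 times lower (1.40 to 1.72), which is under the ratio of 2. Cebpb, a factor of stress granulopoiesis, had 60 UMIs in upper CD and 2 in upper Repop D5 barcodes, 8.39 times lower (2.22 to 70.8). In the other barcodes Cebpb was 2.34 times lower in Repop D5 (2.11 to 2.60).

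Several genes that differed between the members of the libraries differed in the same direction outside them. Cst3, cystatin C, abundant in microglia, was at 20298 CPM in upper CD and 1983 CPM in upper Repop D5 barcodes, a ratio of 0.0977 (0.0752 to 0.125). In the other barcodes it was at 65915 and 7155 CPM, a ratio of 0.109 (0.108 to 0.109). P2ry12 had a ratio of 0.256 (0.0673 to 0.692) in the upper and 0.162 in the other barcodes. Lgals1, galectin 1, had 3 UMIs in upper CD and 15 in upper Repop D5 barcodes, a ratio of 17.9 (5.06 to 96.4), and a ratio of 8.42 in the other barcodes. Birc5 and Ube2c, genes of dividing cells, were called higher, with 0 UMIs in upper CD and 4 and 3 UMIs in upper Repop D5 barcodes. The other Repop D5 barcodes held them at 173 and 185 CPM and the other CD barcodes at 3.07 and 3.61 CPM. The part of RNA from other cells in these ratios was not tested.

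**Figure D5:**
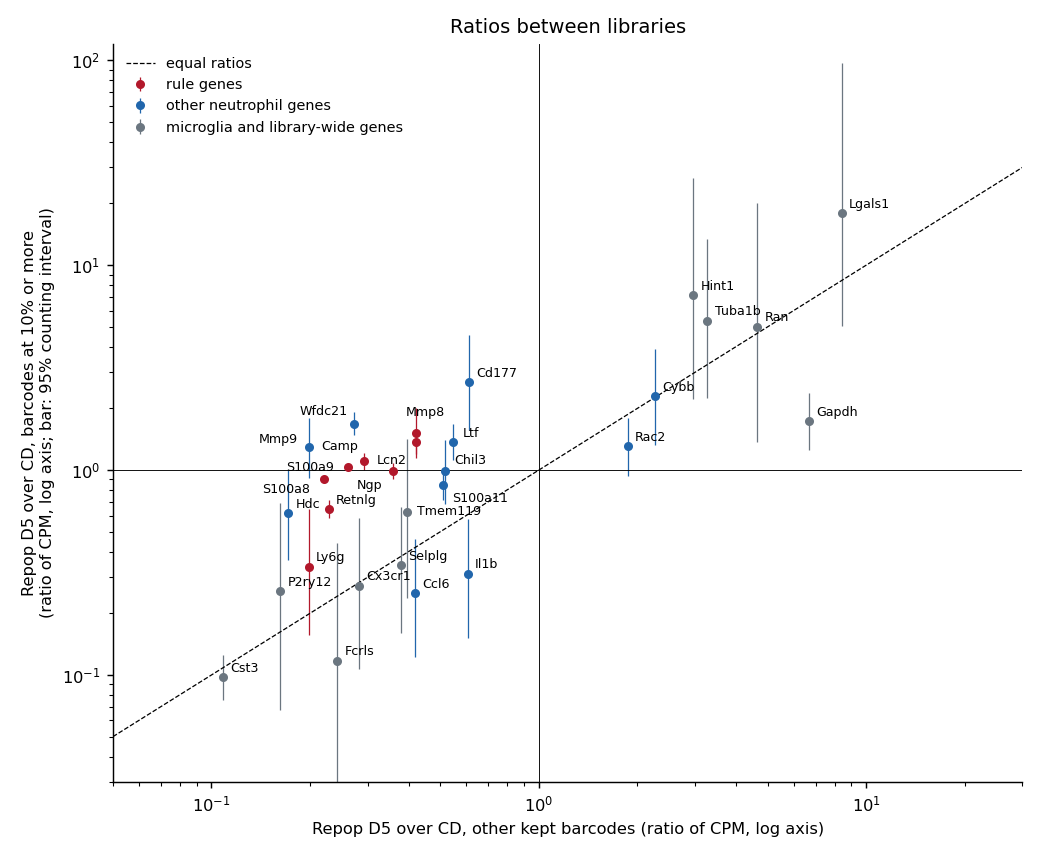
The x axis is the ratio of Repop D5 over CD in the other kept barcodes and the y axis the same ratio in barcodes with rule genes at 10% or more, both as ratios of summed CPM on log axes. Points are rule genes (red), other neutrophil genes (blue) and microglia or library-wide genes (grey), bars are 95% counting intervals of the y value, and the dashed line marks equal ratios. Cst3 lies by the line at 0.109 and 0.0977, while S100a8 lies above it at 0.221 and 0.908.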

How the data were processed

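Per the labels' protocols, sorted live CD11b+/CD45+ brain cells were made into 10x Genomics libraries and sequenced on a HiSeq. Cell Ranger 2.1.0 and mm10 are named in the submitters' processing notes; which annotation release and which cell-calling rule were used is not given in the sources used here. The authors deposited 1 matrix of unnormalized UMI counts for each library, with 27998 genes, and a pooled matrix, used as an alternative, which kept 96.8% of the Repop D5 UMIs. The members, gene lists and tests were chosen with earlier results of these data known.

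UMI counts were summed over barcodes with Python 3.11.15 and scaled to CPM. Ratios have exact conditional binomial 95% intervals, shares Clopper-Pearson ones and sums exact Poisson ones. The CD members summed to 518815 UMIs and the Repop D5 members to 107306, beside 5537071 and 10930615 in the other barcodes. A 0 was read against a floor of 3 counts. Shares of barcodes with a UMI are medians of 20 seeded draws at 2500 UMIs per barcode. No doublets were removed; Scrublet (scanpy 1.11.5, expected share 5%) served as an alternative. The ratio script was tested on simulated data. Of 271 listed genes, 4 (Ighm, Trbc2, Cebpd and Clec7a) were not analysed here. A further result is not reported here.

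Genes named are the 8 rule genes and the 15 highest and 10 lowest CD ratios at 200 CPM with a UMI in 25% of barcodes of the higher side. The 5 highest and 5 lowest Repop D5 over CD ratios, examples of each of 18 lists and a set of receptors and markers were added. The rules were repeated on barcodes at 10% or more, a choice made after seeing the data, as were Prtn3, Ctsg, Gfi1, Prss57, Ms4a3, Bpi, Cxcl2, Ly6c2, Ube2c and genes named only to spell out a count. Coordinates are from GENCODE M21, in which 131 of 131 named genes were found. Alternatives covered the cell filter, the marker threshold, scaling, barcode weights, gene minimums, doublets and the pooled matrix.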

Additional observations from a re-analysis of the deposited data

How the results depend on the processing

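No paired analysis was possible because each group is 1 library and no result comes from a test. The share of members in CD was 4.76% at 5% of UMIs, 3.78% at 10% and 4.27% with 6 genes (without S100a8 and S100a9) at 1%, against 6.90%, and the Repop D5 share stayed within its counting interval under every alternative. The microglia marker level of CD members, 22262 CPM, was 15598 CPM at 5% and 5996 CPM at 10%, and that of Repop D5 members, 6589 CPM, was 4831 and 2929 CPM. Gene counts are given as higher and lower. In CD (176 and 61) they were 270 and 592 at 5%, 431 and 1524 at 10% (against all barcodes under 10%), 302 and 583 with equal weight per barcode, 401 and 354 at 10 CPM, 61 and 8 at 200 CPM and 517 and 373 with no gene minimum. Only the lower count moved with trimmed-mean scaling (30), with totals free of rule, mt- and ribosomal protein genes (37) and with both libraries pooled (289). Barcodes at 2 to 10% alone, chosen after seeing the data, gave 73 and 27. In Repop D5 (220 and 277) they were 346 and 455 at 10%, 350 and 170 with those totals, 409 and 1001 with equal weight and 56 and 66 at 200 CPM. There the lower count was 437 at 5% and 445 with 1000 genes and 5% mt-, and the higher count 354 at 10 CPM and 399 with no minimum. Between the libraries (299 and 563) they were 146 and 219 at 5%, 111 and 51 at 10%, 553 and 353 with those totals and 152 and 172 at 200 CPM, and the higher count was 199 with the strict cell filter. The share of calls that were higher in CD, 74.3%, was 86.8% with trimmed-mean scaling, 86.9% with those totals, 31.3% at 5% of UMIs, 22.05% at 10%, 34.1% with equal weight and 38.1% with both libraries pooled. Trimmed-mean scaling raised all log2 ratios by 0.15 in CD and by 0.11 in Repop D5 and between the libraries, and turned no named gene. S100a4 turned from a log2 ratio of 1.42 in CD to -0.081 at 5% and -0.00052 at 10%, and no other named gene that was called turned. The causes were not tested. A count of 3 UMIs is 25.6 CPM over the upper CD and 91.5 CPM over the upper Repop D5 barcodes, which limits what a 0 shows.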
